A study of Mus musculus with 4 samples.

Results

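Interferon-stimulated genes are the genes that cells switch on when interferon reaches them. A list of 37 was read here in the lungs of 2 kinds of mouse, one with its Galt gene edited (GAL) and one wild-type (WT). Single cells had been sequenced in droplets, and each genotype had 2 libraries. Members were the rows of the 4 count matrices whose gene symbol stood on the list: 35 of the 37 had such a row, of 32285 rows in all. For Mx1 and Mx2 no row was matched, and they were not analysed here. The GAL mice are described in the labels only as Galt gene-edited, without saying what was changed or where, and the WT mice only as wild-type. Strain, age, sex and any treatment are not given in the sources used here, nor is the number of animals behind a library. Galt encodes an enzyme of galactose metabolism. The questions asked of the members were in which lung cells they were high and whether their levels differed between GAL and WT.

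Interferons are secreted proteins that warn cells of viruses and intracellular microbes. Type I interferons and interferon gamma bind different receptors, and both act through JAK kinases and STAT transcription factors. Type I signalling acts through a complex with STAT2 and IRF9 that binds the interferon-stimulated response element, and interferon gamma acts mainly through the gamma-activated site. The induced proteins sense foreign RNA, cut or trap it, attack the vacuoles of intracellular microbes, call in T cells and damp the signal itself. In uninfected tissue a low, constant tone of interferon keeps many of these genes on at a basal level, and cell types differ in that level.

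The response element itself can be seen in the members' promoters. RefSeq (GRCm38.p6) gave a promoter window of 300 bases, from 250 before to 50 after the start site, for 27 members, and the other 10 had no entry. The letters GAAANNGAAA, on either strand, lay in 17 of the 27 (63.0%), against 3.99% of all 27025 genes with a window. The gamma-activated letters TTCNNNGAA lay in 7 of the 27 (25.9%), against 9.55% of all. A match is a description of letters and not a site shown to be bound. The windows below are from members whose levels are described further on. They read 5′ to 3′ on the gene's strand, and capitals mark the matched response-element letters, which read in reverse complement where the match is on the other strand.
Isg15 (chr4:156200863-156200908, minus strand): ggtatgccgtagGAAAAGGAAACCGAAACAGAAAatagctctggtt
Ifit1 (chr19:34640773-34640825, plus strand): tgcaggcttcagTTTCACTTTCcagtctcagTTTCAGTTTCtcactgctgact
Oas3 (chr5:120777713-120777746, minus strand): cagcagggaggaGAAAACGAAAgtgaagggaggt
Rsad2 (chr12:26456551-26456584, minus strand): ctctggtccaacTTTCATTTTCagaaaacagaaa
Bst2 (chr8:71537575-71537614, minus strand): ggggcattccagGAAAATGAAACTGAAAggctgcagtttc
Gbp7 (chr3:142530271-142530304, plus strand): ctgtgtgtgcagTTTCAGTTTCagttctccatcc
Irgm1 (chr11:48871423-48871462, minus strand): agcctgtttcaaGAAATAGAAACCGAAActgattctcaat
Cxcl10 (chr5:92349081-92349114, minus strand): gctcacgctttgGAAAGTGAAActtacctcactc
In Isg15 3 overlapping matches run together into 1 stretch, and in Irgm1 and Bst2 2 do. Ifit1 holds 2 matches set apart from each other, and both read on the opposite strand.

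The libraries held 62406681 and 56218178 UMIs in GAL and 61340929 and 58518235 in WT, and 53463 cells were kept. The median kept cell held more UMIs in GAL (3782.5 and 2911) than in WT (2536 and 2472.5), as was the median mitochondrial share (2.30% and 2.25% against 1.82% and 1.78%). Pairs of libraries shared 104 to 146 cell barcodes, 0.875% to 1.15%. Each cell was gated by UMIs of 8 standard markers per cell type, none of them a member, so the members played no part in the gates. Between 72.4% and 79.1% of cells were gated, and 18 types had at least 30 cells in every library. Levels are CPM, the UMIs of a gene scaled to the total UMIs of the summed cells, given in the order GAL replicate 1, GAL replicate 2, WT replicate 1, WT replicate 2, and errors of levels are SDs over the 4 libraries. In 16 of the 18 gates the type's own markers stood above every other list. In the ciliated gate the club-cell list was higher, through Scgb1a1 at 44310 to 179008 CPM of the sum, but the median ciliated cell gave it only 0.129% to 0.308% of its UMIs. In the type 1 dendritic gate the type 2 list stood at 2396 CPM and its own at 1974.

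General capillary cells, the endothelial cells that line most alveolar capillaries, held the highest mean level of 16 of the 35 members. Neutrophils held 7, classical monocytes 4, interstitial macrophages 3, ciliated and migratory dendritic cells 2 each and alveolar fibroblasts 1. These counts were not made over all genes, so they cannot be set against a background. In the tests of types below, 35.1% of all genes were called higher in general capillary cells. The same type was highest in all 4 libraries for 15 members, and for 11 its libraries did not overlap those of the next type. The highest type stood 2.64 to 36.4 times above the median over the 18 types (median over members 7.18). The heat map of levels shows all 35 members.

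**Figure D1:**
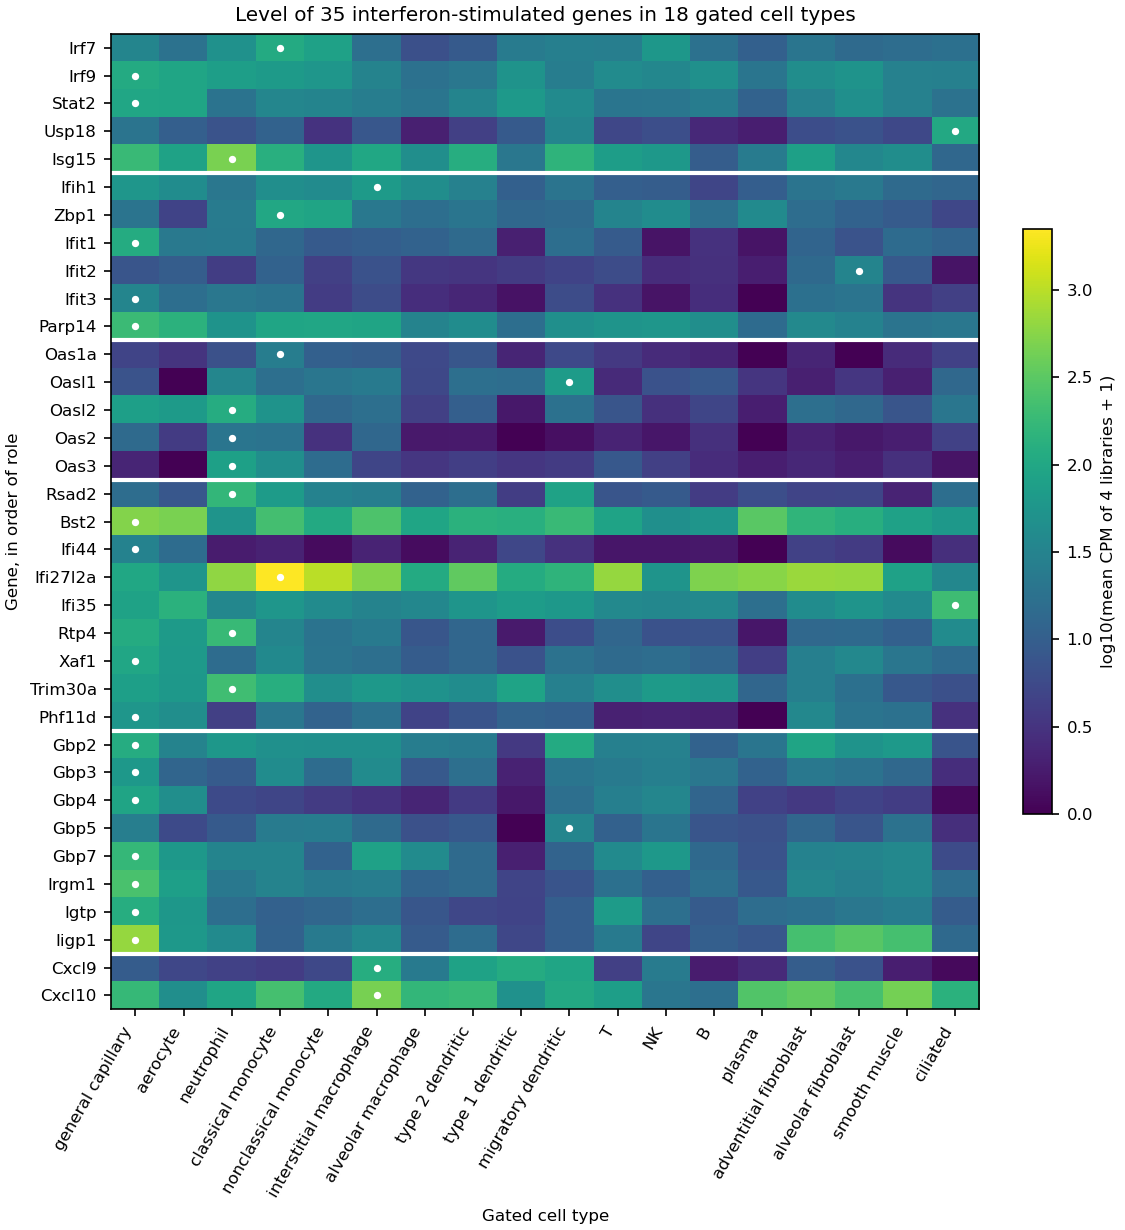
Level of each of the 35 members (rows, in order of role, white lines between roles) in 18 gated cell types (columns), as the log10 of the mean CPM of 4 libraries plus 1, by the colour scale. A white dot marks the highest type of each gene: 16 dots lie in the general capillary column, 7 in neutrophils and 4 in classical monocytes, counts not made over all genes.

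The interferon-induced GTPases, which coat and break the vacuoles of intracellular microbes, were mostly highest in one place: 7 of 8 in general capillary cells. Iigp1 stood there at 1028, 364, 807 and 457 CPM (664 ± 309), ahead of alveolar fibroblasts at 325, 239, 443 and 197. GAL replicate 1 was the highest and GAL replicate 2 the lowest in capillary cells, and the libraries of both types overlapped. In B cells Iigp1 lay at 11.9, 9.56, 11.4 and 4.60 CPM. Its reads may be shared with the related genes Gm4951 and F830016B08Rik, which would make its count uncertain. The same holds for close paralogs of the Gbp, Ifit and Oas families and Trim30a. Sharing of reads was not tested. Irgm1, which also controls the other GTPases, stood at 292, 133, 301 and 232 CPM in capillary cells, and the next type, the aerocytes of the gas-exchange capillaries, at 118, 55.6, 92.0 and 44.3. Igtp stood at 131, 82.4, 156 and 109.6 CPM there and at 77.9, 57.3, 67.2 and 64.7 in T cells. Neither Irgm1 nor Igtp overlapped its next type. Gbp7 stood at 179.9, 129, 206 and 152 CPM, again apart from the next type, interstitial macrophages, at 74.5 to 102. Gbp2, Gbp3 and Gbp4 had capillary means of 118 ± 34.9, 59.5 ± 13.5 and 90.3 ± 36.3 CPM and overlapped the next type. Gbp5 was highest in migratory dendritic cells, those that carry antigen to lymph nodes, at 12.4, 34.2, 54.2 and 30.6 CPM, and overlapped capillary cells at 15.1 to 39.7.

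Active oligoadenylate synthetases make a small messenger that switches on an RNA-cutting enzyme. Of the 5 members that belong to this family by sequence, 3 were highest in neutrophils. Oas3 stood at 53.6, 90.3, 97.7 and 75.5 CPM in neutrophils and at 34.9 to 52.5 in classical monocytes, without overlap. Oas2 stood at 8.34, 24.2, 22.7 and 20.6 in neutrophils and at 11.6 to 23.5 in classical monocytes, so those 2 types could not be ordered. Oasl2 stood at 81.0, 172, 93.9 and 118 CPM in neutrophils and at 44.0 to 109.7 in capillary cells. Oas1a was highest in classical monocytes, at 28, 16.7, 19.8 and 37.4. Oasl1 was highest in migratory dendritic cells, at 169, 23.2, 31.1 and 45.9 CPM, but 1 cell gave 29 of the 41 UMIs behind the first of these values.

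Among the RNA sensing and binding members, Ifit1, Ifit3 and Parp14 were highest in capillary cells. Ifit1, which binds viral RNA without host caps, stood there at 225, 23.6, 114 and 90.3 CPM, and both the highest and the lowest library were GAL. Ifit3, its partner, repeated that order of GAL libraries at 56.2, 12.5, 34.4 and 26.8, and Parp14, an ADP-ribosyltransferase, stood at 231, 111, 225 and 199. Ifit2 was instead highest in alveolar fibroblasts, at 30.0, 37.4, 27.7 and 28.8 CPM, above adventitial fibroblasts at 8.23 to 16.5 in every library. Zbp1, a sensor of Z-form nucleic acid, was highest in classical monocytes (93.2, 118, 96.3 and 101 CPM) and overlapped nonclassical monocytes. Ifih1, the long double-stranded RNA sensor, had its highest mean in interstitial macrophages at 55.0, 120.0, 48.5 and 37.8, where only 1 library put it first.

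Of the 9 other antiviral effectors, 4 were highest in capillary cells, 3 in neutrophils, 1 in classical monocytes and 1 in ciliated cells. Rsad2, viperin, stood at 127, 141, 182 and 200.3 CPM in neutrophils. Rtp4 stood there at 169, 140.4, 119.8 and 282, and Trim30a at 155, 285, 165 and 224. Bst2, tetherin, which holds budding virus at the surface, stood at 494, 536, 501 and 575 CPM in capillary cells and 368 to 539 in aerocytes. Among 48 plasmacytoid dendritic cells, too few for the tests and for the counts above, Bst2 stood at 2768, 3668, 3329 and 4722 CPM; it is a known surface marker of those cells. Xaf1, Ifi44 and Phf11d were also highest in capillary cells, Xaf1 at 79.5 to 108 and apart from aerocytes. Ifi27l2a, a mitochondrial and nuclear envelope protein, was highest in classical monocytes at 2285, 2174, 2167 and 2284 CPM and reached 818 to 1205 in nonclassical monocytes. Ifi35 was highest in ciliated cells, at 200.5, 181, 193 and 247.

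The regulators had no common place. Isg15, a ubiquitin-like tag, stood in neutrophils at 503, 411, 362 and 608 CPM, in capillary cells at 247, 97.9, 182 and 214, and in B cells at 10.8, 8.96, 4.57 and 11. Usp18, the protease that removes that tag and blocks the type I receptor, was highest in ciliated cells at 87.7, 73.3, 114 and 139, and its median over types was 5.72. Irf7, the factor that amplifies type I interferon, was highest in classical monocytes at 161, 99.0, 85.3 and 95.8 CPM. Irf9 and Stat2, parts of the type I transcription complex, were highest in capillary cells at 111 ± 20.5 and 94.9 ± 21.3 CPM, and both overlapped aerocytes.

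Both chemokines, which attract T cells through CXCR3, were highest in interstitial macrophages. Cxcl10 stood there at 578, 692, 293 and 268 CPM, with both GAL libraries above both WT libraries, and at 406, 301, 808 and 258 in smooth muscle or myofibroblasts. Cxcl9 stood at 32.3, 122, 323 and 4.20 CPM in interstitial macrophages. Its 632 UMIs in WT replicate 1 came from 58 of 390 cells, with 58.5% in 5 cells, and WT replicate 2 held 4. The level of Cxcl9 in a library therefore rested on few cells, and the WT libraries lay on both sides of the GAL ones.

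**Figure D2:**
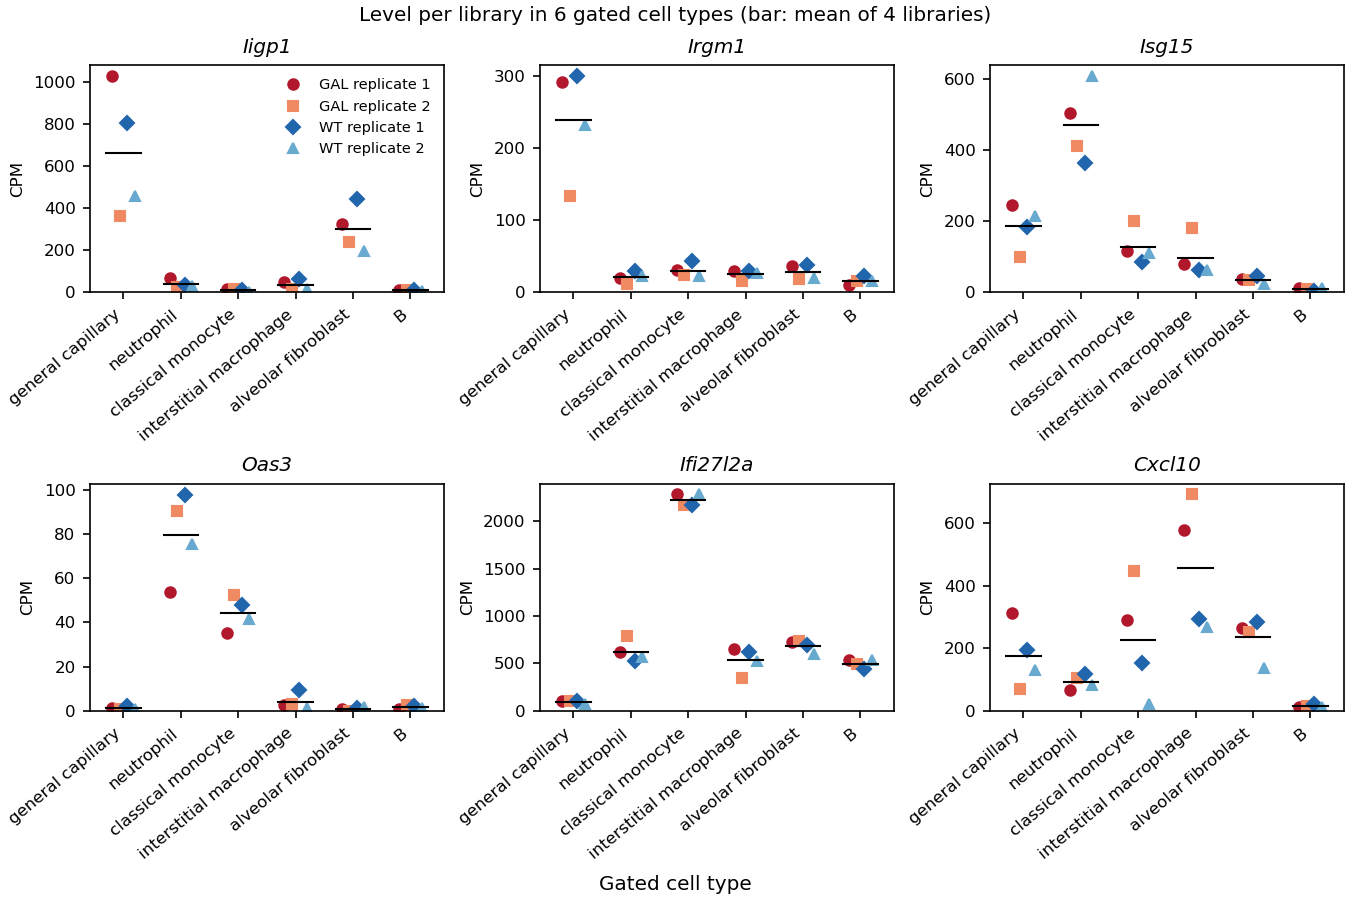
Level in CPM of Iigp1, Irgm1, Isg15, Oas3, Ifi27l2a and Cxcl10 (panels) in 6 gated cell types; points are the 4 libraries and the bar is their mean. Iigp1 in general capillary cells spans 364 to 1028 CPM with both ends in GAL, and Isg15 in neutrophils spans 362 to 608 CPM, above its levels in the other 5 types.

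Each type was tested against the mean of the other 17 types by edgeR's quasi-likelihood test with the library as a block. A member was called at an adjusted p under 0.05 over 13004 genes. Log2 differences are given ± SE. For every edgeR value here, the SE is the absolute log2 difference divided by the square root of the test's F statistic. Over all types 333 of 630 member tests were called, 197 higher and 136 lower; 57.3% of member tests and 54.6% of tests of all genes had an unadjusted p under 0.05, so being called is common. In general capillary cells 25 members were higher and 1 lower, where 35.1% of all genes were called higher, and the members' median was 1.51 against 0.05 over all genes. The largest called differences there were Iigp1 at 4.53 ± 0.20, Ifi44 at 4.43 ± 0.24 and Gbp4 at 3.93 ± 0.15. The smallest were Ifi27l2a at −1.88 ± 0.29, Ifi35 at 0.43 ± 0.10 and Trim30a at 0.65 ± 0.13. Scaling by total counts moved the median of all genes in capillary cells from 0.05 to 0.43 and the members' median to 1.88.

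In 8 members (Oas1a, Oas2, Oas3, Oasl1, Ifi44, Ifit3, Phf11d and Gbp5) 1 or more types held no UMI, and edgeR's mean over types then depends on its prior count. For these the value of limma on log2 CPM with a prior count of 2, an alternative chosen after seeing the data, is given too. Ifi44 in capillary cells was 3.68 by limma. Leaving the 8 out, 20 of 27 members were called higher in capillary cells and 1 lower.

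Classical monocytes, the blood monocytes that enter inflamed tissue, had 27 members higher and 1 lower, where 24.2% of all genes were called higher; the median was 1.29. Oas3 stood at 4.46 ± 0.30 (3.93 by limma), Oas2 at 4.0 ± 0.33 (3.04) and Oas1a at 3.82 ± 0.29 (3.16), while Iigp1 was lower at −1.57 ± 0.58. Without the 8 members it was 20 of 27 higher and 1 lower. The smallest called rises there were Ifi35 at 0.34 ± 0.13 and Gbp7 at 0.63 ± 0.21, and neither was called by limma (0.30 and 0.62).

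In neutrophils 19 members were higher and 2 lower, where 30.4% of genes were called higher; scaled by total counts it was 16 and 4, where 22.9% were. Oas3 stood at 5.61 ± 0.22 (5.02 by limma), Rsad2 at 4.46 ± 0.25 and Rtp4 at 4.34 ± 0.16. Bst2 at −1.08 ± 0.17 and Stat2 at −0.43 ± 0.15 were the 2 lower members, and Parp14 at 0.52 ± 0.14 was the smallest rise. In interstitial macrophages 17 were higher and 3 lower, where 25.4% of genes were called higher. Cxcl9 led at 3.94 ± 0.41, with Oas2 at 3.09 ± 0.33 (2.35 by limma) and Oasl1 at 2.15 ± 0.40 (1.62). Gbp4 at −1.20 ± 0.46, Ifi35 at −0.71 ± 0.14 and Irf9 at −0.41 ± 0.17 were lower, the last not called by limma (−0.37).

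Aerocytes had 15 members higher and 5 lower, where 23.1% of genes were called higher, and 21 and 3 when scaled by total counts, where 41.0% of genes were called higher; limma called 15 and 10, where 38.3% of genes were called lower. Ifi44 stood at 3.11 ± 0.51 (2.42 by limma), Phf11d at 2.57 ± 0.31 (2.14) and Gbp4 at 2.52 ± 0.31. Zbp1 at −3.08 ± 0.56 and Ifi27l2a at −2.82 ± 0.38 were lower. Oas3 and Oasl1 had 0 of 1819588 UMIs there, which allows up to 1.65 CPM by counting error, so no fold is given. Migratory dendritic cells had 12 higher and 2 lower, where 21% of genes were called higher, led by Cxcl9 at 4.13 ± 0.50, Oasl1 at 3.64 ± 0.47 (3.35 by limma) and Usp18 at 2.99 ± 0.32; Gbp7 at −1.21 ± 0.36 and Irgm1 at −0.82 ± 0.30 (−1.94 by limma) were lower, and Ifi35 at 0.65 ± 0.16 was the smallest rise. Under total counts it was 10 and 7, where 15.7% of genes were called higher, and limma called 13 and 5, where 19.6% were. Type 2 dendritic cells, which present antigen to helper T cells, had 12 higher and 3 lower, where 26.4% of genes were called higher, but 6 and 6 under total counts (18.9% of genes higher) and 7 and 3 by limma (21.3%). Cxcl9 stood at 4.35 ± 0.46 there, Oas1a at 1.96 ± 0.38 (1.48 by limma) and Oasl1 at 1.8 ± 0.46 (1.23). Igtp at −1.48 ± 0.36, Irf7 at −1.28 ± 0.31 and Irf9 at −0.73 ± 0.18 were lower.

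T cells had 8 members higher and 4 lower, where 37.4% of genes were called higher, so the count was below the background; it was 7 and 6 under total counts (34.3% of genes higher) and 7 and 8 under RLE factors (29.2%). Gbp4 at 2.57 ± 0.17, Igtp at 2.40 ± 0.15 and Oas3 at 1.71 ± 0.31 (1.29 by limma) were the largest. Ifih1 at −1.08 ± 0.22, Stat2 at −0.63 ± 0.12 and Bst2 at −0.55 ± 0.14 were the smallest.

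Lower calls outnumbered higher ones in 8 of the 18 types, 4 of which are described here; the 12 types described were chosen after their values were seen. B cells had 18 lower and 4 higher, where 25.9% of genes were called lower, with Cxcl9 at −3.34 ± 1.5, Cxcl10 at −3.19 ± 0.50 and Isg15 at −2.92 ± 0.37; Gbp4 at 1.16 ± 0.23, Ifi27l2a at 0.98 ± 0.22 and Gbp3 at 0.65 ± 0.18 were higher, the last not called by limma (0.53). Alveolar macrophages, which clear the airspace, had 16 lower and 5 higher, where 20.4% of genes were called lower. By limma it was 18 lower and 2 higher, where 19% of genes were called lower and 30% higher. Usp18 stood at −2.46 ± 0.52, Gbp4 at −2.09 ± 0.42 and Irf7 at −2.02 ± 0.21. Cxcl9 at 1.63 ± 0.43 (not called by limma, 1.72), Ifih1 at 1.25 ± 0.15 and Oas1a at 1.21 ± 0.25 (not called by limma, 0.71) were the largest. Ciliated cells had 19 lower and 3 higher, where 30.2% of genes were called lower: Gbp4 at −4.01 ± 0.97, Ifit2 at −3.59 ± 1.04 and Ifi27l2a at −3.53 ± 0.40 against Usp18 at 4.12 ± 0.21, Ifi35 at 1.84 ± 0.11 and Rtp4 at 1.38 ± 0.30. Type 1 dendritic cells, which cross-present antigen, had 16 lower and 7 higher, where 18.1% of genes were called lower. Rtp4 at −4.41 ± 0.83 and Gbp7 at −4.28 ± 0.49 rested on 2 and 4 UMIs in all, and Gbp5 had 0 of 3465944 UMIs. Cxcl9 at 4.25 ± 0.47, Ifi44 at 1.92 ± 0.58 and Oasl1 at 1.62 ± 0.58 were higher, the last 2 not called by limma (0.62 and 0.99).

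**Figure D3:**
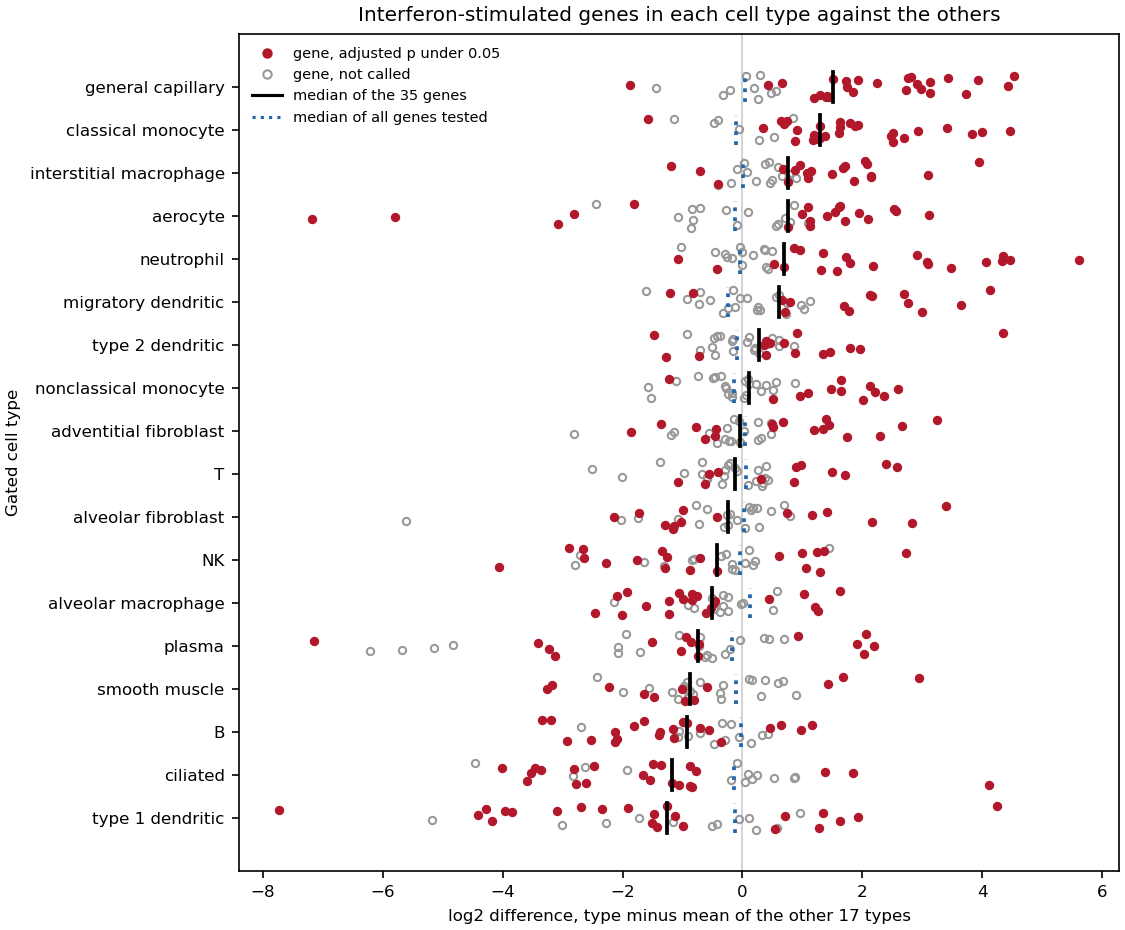
Log2 difference of every member in each gated type against the mean of the other 17 types by edgeR; filled points are called (adjusted p under 0.05), open points are not, the black bar is the members' median and the dotted bar the median of all genes tested. The members' median is 1.51 in general capillary cells and 1.29 in classical monocytes, and −0.92 in B cells and −1.17 in ciliated cells; the points farthest to the left rest on types with no UMI of the gene.

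The members were spread over single cells unevenly. Each cell was thinned to 1000 UMIs, leaving out shallower ones: 78, 67, 84 and 122 capillary cells, 18, 73, 195 and 96 neutrophils and 30, 45, 104 and 147 B cells. In capillary cells 63.2%, 33.8%, 55.6% and 47.5% then held UMIs of at least 3 members. The share was 21.4%, 27.7%, 21.8% and 27.5% in neutrophils and 4.16%, 3.61%, 3.83% and 4.34% in B cells, so in every library capillary cells were above neutrophils and neutrophils above B cells. GAL replicate 2 was the lowest capillary library by this measure too.

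Iigp1 gave a UMI in 53.9%, 24.9%, 40.1% and 26.5% of thinned capillary cells (73.8%, 45.5%, 55.1% and 48.5% before thinning) and in 2.17%, 1.20%, 1.85% and 1.19% of thinned T cells. Median depths before thinning were 3113, 2831, 2103 and 2504 UMIs in capillary cells and 3397.5, 2957, 2146 and 2785.5 in T cells. Isg15 gave a UMI in 30.5%, 27.1%, 25.7% and 33.8% of thinned neutrophils (43.9%, 38.8%, 29.8% and 42.8% before) and in 6.83%, 7.5%, 5.60% and 6.93% of T cells. Neutrophils were shallower, at medians of 1994.5, 1894, 1226 and 1554 UMIs. Thinned cells with an Isg15 UMI held more UMIs of the other members than cells without. In neutrophils the ratio was 2.12, 1.86, 2.68 and 1.83, in capillary cells 1.44, 1.57, 1.30 and 1.59. In alveolar macrophages, where only 2.09% to 4.36% of cells had an Isg15 UMI, it was 8.2, 1.97, 4.35 and 6.07. The ratio was above 1 in every library of these 3 types, which describes these cells and is no test.

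GAL was compared with WT over summed counts, first over all kept cells of a library. No member was called: edgeR called 0% of 17222 genes at an adjusted p under 0.05, and 1 of 35 members had an unadjusted p under 0.05. DESeq2 called 0.244% of genes, none of them a member, with 2 members at an unadjusted p under 0.05. After TMM scaling, 3 members had both GAL libraries above both WT libraries and 4 below, 7 of 35, where 38.2% of all genes did one or the other. The members' median log2 fold change was −0.03, with 14 positive and 21 negative; scaling by total counts gave 18 and 17, and leaving out WT replicate 1 gave 28 and 7 with a median of 0.17. In a whole-lung sum, more cells of a type and more RNA per cell cannot be told apart.

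The 5 members with the smallest p in each direction are given by rule, and their values do not bound the size of a difference. Cxcl10 stood at 191, 212, 137 and 123 CPM, a log2 fold change of 0.61 ± 0.20 (edgeR, unadjusted p = 0.0261, adjusted p = 0.770). Oasl2, Ifit2 and Ifih1 had 0.33 ± 0.15, 0.46 ± 0.26 and 0.38 ± 0.24. Iigp1 had 0.72 ± 0.50 with levels of 197, 69.0, 89.9 and 64.7 CPM, so GAL replicate 1 stood alone and GAL replicate 2 lay between the WT libraries. Oas1a had −0.80 ± 0.33 at only 2.34, 3.57, 5.20 and 5.02 CPM. Irf7, Ifi35, Zbp1 and Irf9 lay at −0.25 ± 0.16, −0.22 ± 0.16, −0.36 ± 0.30 and −0.15 ± 0.13. Ifit1 was called without GAL replicate 2, at 1.28 (edgeR, adjusted p = 0.0356), when 405 genes were; its levels were 37.9, 11.4, 14.4 and 14.6 CPM. Members were highest in GAL replicate 1 for 15 and lowest in GAL replicate 2 for 15, and for 14 the GAL libraries lay on both sides of both WT libraries. The same counts were not made over all genes. GAL replicate 1 also held 1269 general capillary cells, against 918, 874 and 1137 in the others. Classical monocytes numbered 75 and 139 in GAL and 336 and 340 in WT, and alveolar macrophages 1279 and 1216 against 2089 and 1866. Neutrophils numbered 326 and 1191 in GAL and 947 and 922 in WT. All kept cells numbered 12148 and 11887 in GAL and 14012 and 15416 in WT. The part of these cell numbers in the whole-lung levels was not tested.

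**Figure D4:**
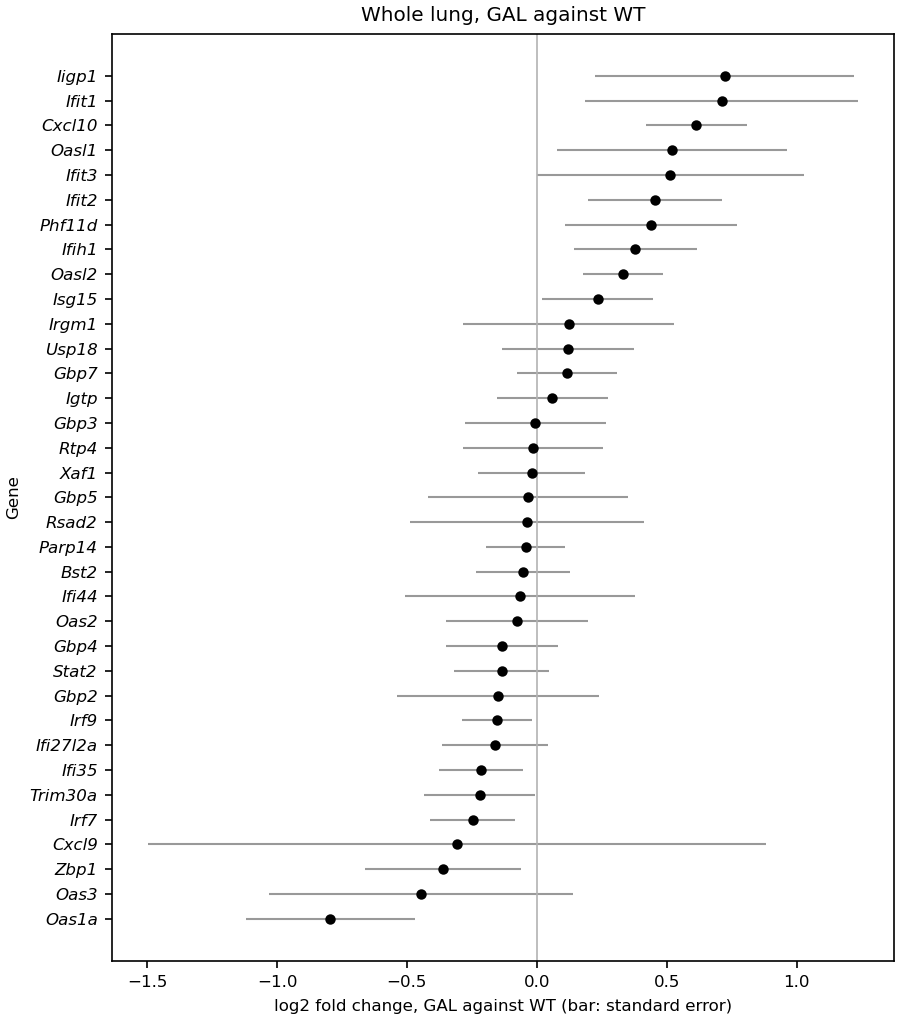
Log2 fold change of each member, GAL against WT, over the whole-lung sums (points) with its standard error (bars, derived from the F statistic), edgeR. No member was called; Cxcl10 at 0.61 and Oas1a at −0.80 have the smallest p in each direction.

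Within the 18 gated types, 0 of 415 member tests were called by edgeR and 0 by DESeq2. By edgeR 37 had an unadjusted p under 0.05, 24 higher and 13 lower in GAL, which is 8.92% of member tests against 4.07% of tests of all genes; by DESeq2 20 had. Among all genes edgeR called 0.0307% in B cells, 0.0836% in classical and 0.183% in nonclassical monocytes, 0.0543% in general capillary cells and 0.0353% in aerocytes. It called 0.0114% in alveolar fibroblasts, 0.0358% in smooth muscle or myofibroblasts, 0.0606% in ciliated cells and 0% in the other 10 types. The members' median ran from −0.69 in migratory dendritic cells to 0.41 in plasma cells, positive in 6 types and negative in 12.

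In the 6 types with the most cells the differences named by rule were below 2-fold with 4 exceptions, and none was called. In general capillary cells Gbp2 had −0.55 ± 0.22 (102, 87.7, 168 and 117 CPM), Ifi44 −0.54 ± 0.26 and Stat2 −0.36 ± 0.22, while Ifi27l2a, Cxcl9 and Phf11d had 0.25, 0.38 and 0.25. In T cells Gbp5 had −1.04 ± 0.52 with levels of 6.75, 5.84, 20.5 and 6.35 CPM, so WT replicate 1 alone was high. Gbp2 and Irf9 had −0.65 ± 0.36 and −0.34 ± 0.20 there, and Ifit2, Isg15 and Irf7 had 0.43, 0.18 and 0.26. In alveolar macrophages Ifih1 had 0.51 ± 0.24 (41.1, 56.5, 33.9 and 39.1), Cxcl10 0.56 ± 0.36 and Gbp7 0.18 ± 0.15. Ifi35 had −0.27 ± 0.12, Rtp4 −0.82 ± 0.55 and Usp18 −1.10 ± 0.75, the last at only 0.479, 0.689, 2.00 and 0.605 CPM. In B cells Oasl1, Iigp1 and Irf7 had 0.55, 0.59 and 0.26, and Irf9, Zbp1 and Irgm1 −0.35, −0.32 and −0.38.

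In adventitial fibroblasts, the cells around vessels and airways, Irf7 had −0.73 ± 0.27 (14.5, 13.7, 27 and 20.3 CPM), Ifit1 −1.01 ± 0.43 (7.73, 6.41, 20.6 and 9.02) and Ifit3 −0.63 ± 0.28. Of the 29 members tested there, 7 had both GAL libraries below both WT libraries and 2 above, where 34.7% of all genes lay apart in one direction or the other. Irf7, Ifit1 and Ifit3 are among the 7, and they were named for their small p. WT replicate 1 was the highest library for 22 of 29 members in these cells, a count not made over all genes. Leaving out 1 library moved Ifit1 to between −1.54 and −0.33. Ifit2 and Oasl2 had 0.50 ± 0.33 and 0.21 ± 0.28, and Cxcl9 1.54 ± 2.49, an estimate that 1 library carries (0.242, 26.6, 7.64 and 0.902). In neutrophils Ifi27l2a had 0.53 ± 0.23 (621, 786, 521 and 572 CPM), with both GAL libraries above both WT libraries. Iigp1 and Gbp3 had 0.72 ± 0.43 and 0.65 ± 0.45 there, and Irgm1, Stat2 and Xaf1 −0.68 ± 0.38, −0.77 ± 0.43 and −0.72 ± 0.45.

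Outside these 6 types, several of the smallest p-values were in monocytes, macrophages and dendritic cells; the members of this paragraph were picked after their values were seen, and none was called. In nonclassical monocytes, which patrol the vessel wall, Ifih1 had 1.69 ± 0.42 (49.6, 66.7, 30.3 and 13 CPM) and Isg15 1.64 ± 0.41 (56.5, 111, 18.7 and 34.8), both at an adjusted p of 0.138 by edgeR. All GAL libraries were above all WT libraries for both, which were picked for their values. Of the 18 members tested there, 4 lay above and 3 below in this way, where 40.1% of all genes lay apart in one direction or the other. Irf9 in the same cells had −0.91 ± 0.29 (39.4, 34.3, 72.3 and 77.2). In interstitial macrophages Cxcl10 had 1.23 ± 0.24 (578, 692, 293 and 268), Isg15 1.15 ± 0.40 (80.8, 182, 61.3 and 63.0) and Ifih1 1.08 ± 0.41, while 21 of the 31 members tested there were negative and 10 positive, with a median of −0.15. In type 2 dendritic cells Oasl1 had 2.56 ± 0.43 (19.8, 33.6, 4.88 and 5.0) and Cxcl10 0.88 ± 0.24. Oasl1 rested on 22, 71, 12 and 6 UMIs there, and 1 cell gave 11 of the 22 in GAL replicate 1. In classical monocytes Ifih1, Isg15 and Ifit2 had 0.86 ± 0.31, 0.79 ± 0.30 and 1.27 ± 0.53. Negative values were seen in migratory dendritic cells, where 17 of 19 members were negative. Their median was −0.69, against −0.01 over all genes tested there, and 1, Stat2 at −0.87, had an unadjusted p under 0.05 by edgeR. Of the 19, 6 had both GAL libraries below both WT libraries and 0 above. Among all genes 27.9% lay apart in one direction or the other. This gate held only 33, 102, 221 and 34 cells. In type 1 dendritic cells Irf7 had −2.06 ± 0.49 (14.8, 5.56, 50.1 and 25.3) and Isg15 −1.75 ± 0.54 (13.3, 7.14, 47.1 and 14.5). Outside the myeloid cells, Gbp2 in NK cells had 1.42 ± 0.41 and Ifi27l2a in smooth muscle or myofibroblasts −1.23 ± 0.35.

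Without the filter on low counts 620 member tests could be made and 10 (1.61%) were called, where 0.259% of tests of all genes were; some of the 10 are not tested with the filter. They were Isg15, Oasl1 and Cxcl10 in interstitial macrophages, Isg15, Ifih1 and Oasl1 in nonclassical monocytes, Irf7 and Isg15 in type 1 and Ifit1 and Oasl1 in type 2 dendritic cells. Marker lists and depth of these gates were read the same way. In nonclassical monocytes 12 of 30 other types' marker lists had both GAL libraries on one side of both WT libraries, where 40.1% of all genes tested there did, and median UMIs per cell were 3360 and 3397 in GAL against 2272.5 and 2713.5 in WT. Of these lists the interstitial macrophage markers, 7 of 8 detected with Folr2 at 0, summed to 82.1 and 122 CPM in GAL and 32.7 and 21.7 in WT, and the neutrophil markers, 8 of 8 detected, to 369.6 and 419 against 523 and 501. In interstitial macrophages 2 of 30 lists lay apart (28.2% of genes), with medians of 5043 and 5800 UMIs against 4341.5 and 4060. It was 7 in type 2 dendritic cells (29.0% of genes), 10 in classical monocytes (36.1%) and 6 in type 1 dendritic cells (38.3%), all below the share of genes. The part of marker lists and depth in these differences was not tested.

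The general capillary cells show how far the 2 GAL libraries differed from each other. Of 34 members tested there, GAL replicate 2 was lowest for 28 and GAL replicate 1 highest for 17, and for 15 the GAL libraries lay on both sides of both WT libraries. The same counts were not made over all genes, so no trait of the members can be read from them. Leaving out GAL replicate 1, 9 members were called lower in GAL, where 0.814% of all genes were, among them Ifit1 at −2.14, Cxcl10 at −1.26, Isg15 at −1.05 and Iigp1 at −0.83. Leaving out GAL replicate 2, Ifit1 at 1.20, Cxcl10 at 1.01, Ifit3 at 0.94 and Iigp1 at 0.76 were called higher, where 0.843% of all genes were. Ifit1, Ifit3, Iigp1 and Cxcl10 were called in both cases, in opposite directions. Over all types 23 member tests were called without GAL replicate 1, 12 without GAL replicate 2, 10 without WT replicate 1 and 9 without WT replicate 2. The shares of tests of all genes called were 0.598%, 0.51%, 0.453% and 0.37%. In capillary cells 11 of 30 other marker lists had the GAL libraries apart from the WT libraries, where 29.8% of all genes tested there did. The nonclassical monocyte list, 8 of 8 detected, stood at 1235 and 1236 CPM in GAL and at 994 and 1023 in WT; the part of this in the members' levels was not tested.

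**Figure D5:**
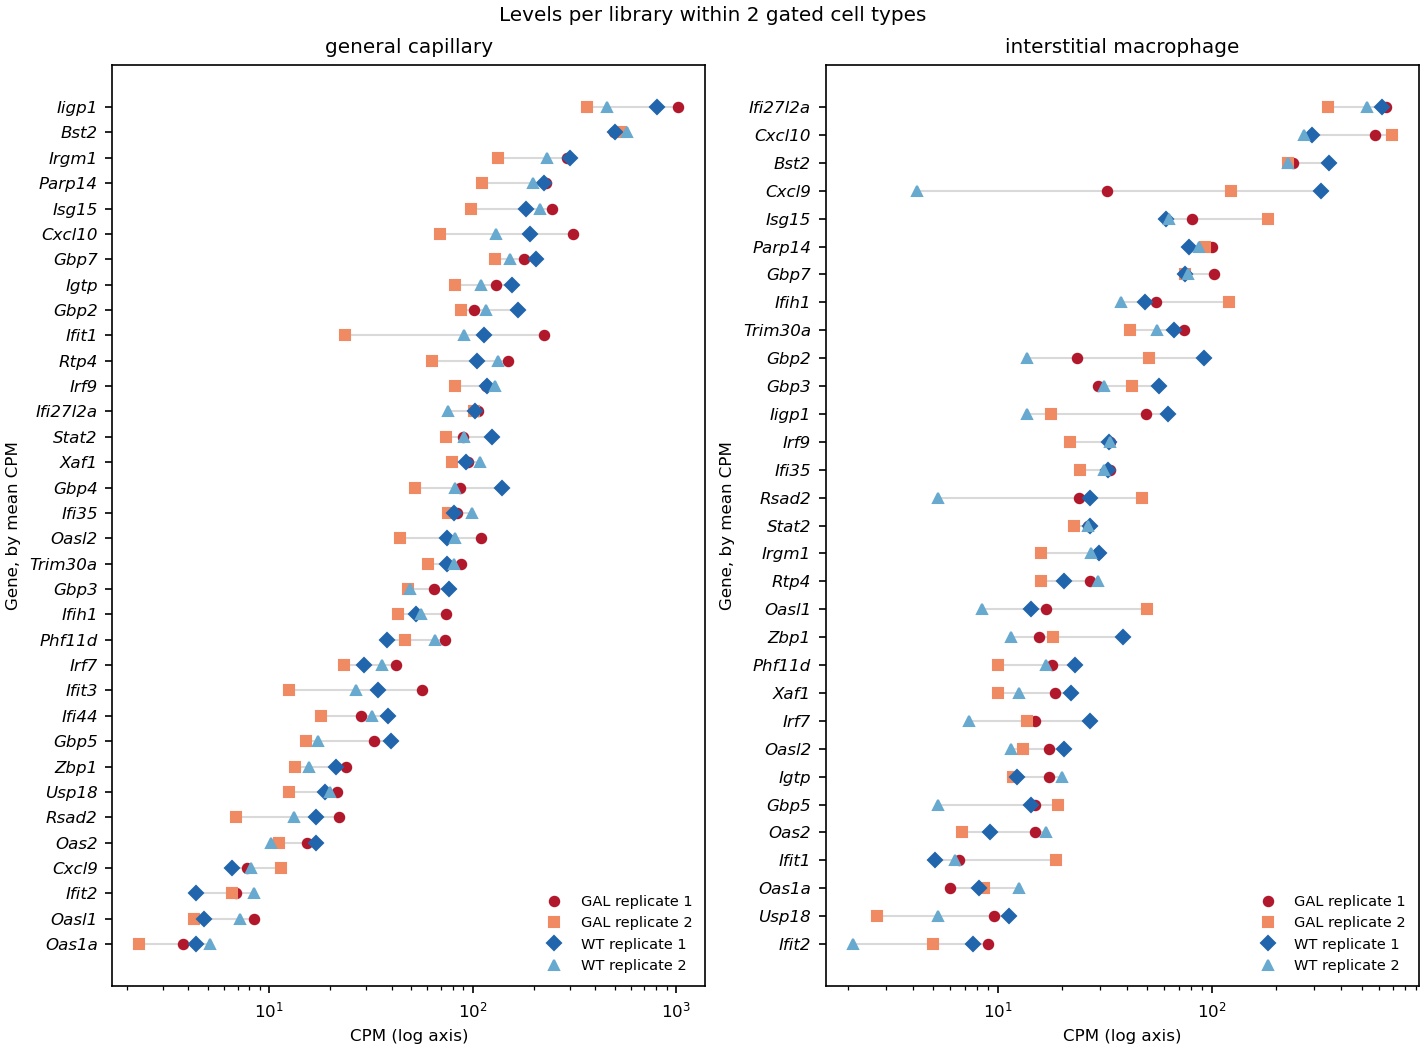
Level of each member tested (rows, by mean level) in each library (points) within general capillary cells and interstitial macrophages, in CPM on a log axis; the grey line joins the libraries of a gene. In general capillary cells GAL replicate 2 is the lowest library for 28 of 34 members and GAL replicate 1 the highest for 17, counts not made over all genes.

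Whether the GAL effect on a member differed between types was tested in 1 model over all types. By edgeR 0 of 630 member tests were called. Unadjusted p-values under 0.05 were found in 18, which is 2.86% against 3.23% of all tests. Among all genes 0.00769% were called in neutrophils, 0.0461% in classical monocytes, 0.0308% in ciliated cells and 0% in the other 15 types. The member with the smallest p was Irf7 in type 1 dendritic cells, where the GAL effect less the mean effect in the other types was −1.77 ± 0.55 on the log2 scale (edgeR, adjusted p = 0.744). By limma 3 of 630 were called: Ifih1 in plasma cells at 3.09 ± 0.56, Ifit3 in migratory dendritic cells at −3.28 ± 0.88 and Oas3 in migratory dendritic cells at −2.74 ± 0.80. Among all genes limma called 4.88% in plasma cells, 2.99% in migratory dendritic cells and 0.596% over all types, so 3 of 630 is no more than the share over all types. Without the filter on low counts edgeR did call member tests. Among them were Cxcl10 in nonclassical monocytes at 2.51 and in classical monocytes at 1.81, and, in the other direction, Cxcl9 in T cells at −3.61. The share of all genes called in that fit is not given here. No difference of effect held under both tools.

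Of 136 other genes of the pathway, 129 had a row and 109 could be tested in the whole lung. None passed there, and 4 had an unadjusted p under 0.05 by edgeR. Trim25, a ubiquitin ligase of RNA sensing, had −0.71 ± 0.18 (127, 129, 182 and 236 CPM), with both GAL libraries below both WT libraries. Fcgr1, an antibody receptor, had −0.63 ± 0.21, Ms4a4c −0.56 ± 0.22 and the GTPase F830016B08Rik 1.09 ± 0.41. Of 21 interferon genes only Ifng and Ifnb1 could be tested. Ifng, made by NK and T cells, stood at 67.2, 83.9, 59.5 and 65.2 CPM in NK cells. Ifnb1 gave 40 UMIs in 17 of 361 interstitial macrophages of GAL replicate 2 and 3 in WT replicate 2, and 0 in the other two libraries. All 9 receptor and kinase genes were tested, 3 positive and 6 negative with a median of −0.12. For the 6 transcription factors it was 1 positive and 5 negative, and for 15 nucleic acid sensors and adaptors 4 and 11. The 7 feedback inhibitors had 5 positive and 2 negative, and 70 other induced genes 30 and 40.

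Within types no test of these genes was called either. The smallest p was for Ifi205 in nonclassical monocytes, a DNA-binding protein of the interferon-inducible 200 family, at 3.08 ± 0.58 (44.5, 55.3, 14.0 and 2.17 CPM; edgeR, adjusted p = 0.0688). Slfn5 in the same cells had 1.34 ± 0.31 and Samhd1, which removes the building blocks of DNA, −0.92 ± 0.22. Of 100 tests of the 6 transcription factors over types that share the same 4 libraries, 11 had an unadjusted p under 0.05, all lower in GAL, where 4.07% of tests of all genes had one in either direction. It was 24 higher and 31 lower of 732 tests for other induced genes, 3 and 1 of 135 for receptors and kinases, 2 and 2 of 153 for sensors and adaptors and 3 and 0 of 116 for feedback inhibitors. These genes were also most often highest in general capillary cells, 25 of the 93 genes with at least 100 UMIs. Classical monocytes followed with 10, B cells with 9 and neutrophils with 8, and the same counts were not made over all genes. Irf1, which carries the interferon gamma signal, stood in capillary cells at 1166, 478, 1048 and 1005 CPM, and Gbp6 at 119.3, 38.1, 121 and 75.3. GAL replicate 2 was the lowest library for both.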

How the data were processed

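Lungs had been rinsed, minced and digested, and cells taken into droplets, per the labels' protocols. The authors deposited 1 matrix per library of raw UMI counts per gene and barcode; the lowest barcode held 500 UMIs. Trimming with fastp, alignment with STAR and handling in Seurat on GRCm38 (mm10) are named in the submitters' processing notes, without versions or roles; no source used here names the gene annotation. Barcodes with at least 500 UMIs, 300 genes and at most 20% mitochondrial UMIs were kept. No doublet caller was run. A cell joined a type with at least 3 of 8 marker genes detected and at least 2 more than for any other of 31 types, which leaves out cells with markers of several types; the whole lung holds all kept cells.

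Replicate numbers are names in accession order and pair nothing. Counts were summed per library and tested by edgeR 4.0.16 in R 4.3.3 (filterByExpr, TMM, quasi-likelihood, Benjamini-Hochberg over all genes tested), with DESeq2 1.42.0 and limma 3.58.1 as alternatives. Types against others and the difference of effect had the library as a block. Printed CPM take the UMIs of the sum before TMM scaling; fold changes are after it. The fits were also run on simulated counts with known changes. The share of those changes recovered is not given here, so the lack of called members does not show a lack of difference. Alternatives were other scalings, no filter, at most 10% mitochondrial UMIs, a stricter gate (4 markers, 3 ahead) and each library left out. Since separate animals are not stated, p-values reflect only how these 4 samples vary, which may be technical, and intervals for 0 UMIs cover counting error only.

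The members, gene lists and tests were chosen with earlier results of these data known. By rule, members are named by their highest type. For GAL against WT those with the smallest p are named, 5 per direction in the whole lung and 3 in the 6 types whose smallest library holds the most cells. For types, the 3 largest and 3 smallest called differences are named, and of other pathway genes up to 4 with the smallest p; other names were chosen after their values were seen.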

Additional observations from a re-analysis of the deposited data

How the results depend on the processing

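Leaving out 1 library changed the counts of called members: 0 to 1 in the whole lung and 9 to 23 within types. In these fits 1 group is a single library assumed to vary like the other, so the calls rest on the spread of 1 pair. Without a filter on low counts, 10 tests within types and 11 of the difference of effect were called. The share of all genes called in the latter fit is not given here, so the 11 cannot be set against it. With the filter limma, added after seeing the data, called 3 tests of the difference of effect. The cause was not tested. Tests of types against the others gave 291 to 399 calls under the alternatives, and 365 by limma, against 333. The share of all genes called moved with the setting too. In general capillary cells 35.1% of all genes were called higher in the main setting, 52.7% under total counts and 24.6% by limma. Of single members named by rule, 263 of 265 values kept their direction and side of the threshold under other settings. Under the stricter gate Ifit2 in T cells was −0.0375 and Cxcl9 in general capillary cells −0.14. With a library left out 172 of 183 did. The values that reversed ranged from −0.13 to 1.24 for Iigp1 in the whole lung, −0.11 to 1.30 for Iigp1 in B cells, −0.0293 to 1.36 for Iigp1 in neutrophils and −0.25 to 0.65 for Irf7 in B cells. They ranged from −0.24 to 0.64 for Irf7 in T cells, −0.20 to 0.69 for Phf11d in general capillary cells, −1.41 to 0.21 for Rtp4 in alveolar macrophages and −3.78 to 3.66 for Cxcl9 in adventitial fibroblasts. No paired analysis was possible because the labels give no replicate numbers or pairs. The 10% mitochondrial limit and DESeq2 were not run for the tests of types, and the stricter gate left fewer than 30 plasma and migratory dendritic cells in a library. The number of libraries, 2 per group, limits the precision of every GAL value.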
